A study of Mus musculus with 2 samples.

Results

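Genes of the IL-7 and IL-2 receptor survival axis were followed across T, NK, innate lymphoid, B and plasma cells of the mouse omentum, the visceral fat depot whose milky spots house lymphocytes. The 10 genes were taken by symbol from the 19960 genes listed, and all 10 were found: *Il7r*, *Il2ra*, *Il2rb*, *Il2rg*, *Il2*, *Bcl2*, *Mcl1*, *Bcl2l11*, *Bcl2a1b* and *Socs1*. The data are single-cell RNA sequencing of omental leukocytes from 2 groups of mice, both injected i.p. with diphtheria toxin (DT) and collected 5 days later. The control group was wild type (WT). The other group was *Postn*-DTR, mice of C57BL/6 origin heterozygous for a diphtheria toxin receptor placed at the *Postn* locus by genome editing in zygotes. DT then kills cells that express *Postn*, which include mesenchymal cells of other tissues such as bone. Each group is 1 library made from pooled mice, there are no replicates, and the groups were therefore compared without any test. A difference is given with a 95% interval that covers counting error only and says nothing about differences between mice.

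The libraries held 8654 WT and 5727 *Postn*-DTR cells after filtering, with 80152215 and 81011212 unique molecular identifiers (UMIs, each marking 1 captured transcript). The median over cells was 5635 UMIs for WT and 8472 for *Postn*-DTR, and 65 cell barcodes occurred in both libraries. For the targeted gene *Postn*, 54 UMIs were counted in the 48 stromal-like cells of WT and 9 UMIs in the 23 stromal-like cells of *Postn*-DTR, too few cells to weigh the ablation. Names ending in "-like" were given to clusters by their marker genes, and the members were left out of the features used for clustering. The γδ T-like cluster also carried 5 of the 6 markers of LTi-like cells, which share with it the type 17 program. It was named from 4 of 5 T cell markers and 7 of 7 γδ T markers. The γδ T markers hold T cell receptor genes but also *Il17a* and *Il23r*, which are LTi markers too.

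The γ chain encoded by *Il2rg* is shared by the receptors of IL-2, IL-4, IL-7, IL-9, IL-15 and IL-21. It pairs with the IL-7 receptor α chain (*Il7r*) on resting T cells and innate lymphoid cells, and with the IL-2 receptor β chain (*Il2rb*) on NK and activated T cells. The α chain CD25 (*Il2ra*) adds high affinity for IL-2, which activated CD4 T cells make and regulatory T cells consume. These receptors signal through JAK1, JAK3 and STAT5, which raises anti-apoptotic proteins of the BCL2 family and, as feedback, inhibitors such as SOCS1 and CISH. BCL2, MCL1 and A1 (*Bcl2a1b*) hold the pro-apoptotic protein BIM (*Bcl2l11*) in check, and in lymph nodes fibroblastic reticular cells are a known source of IL-7.

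The promoter of *Socs1* is shown because this gene gave the most widespread difference described below. RefSeq promoter windows (build GRCm38.p6) were found for 9 of the 10 members, with none for *Il2rb*, and the 250 bases before each start were searched on both strands for the STAT motif TTCNNNGAA and for GAAA followed after any 2 bases by another GAAA, a spaced repeat of the kind that interferon regulatory factors bind. The first occurs in 7.02% and the second in 2.97% of the 32807 windows of that length in the table. *Socs1* held 2 overlapping matches of the spaced GAAA repeat, which begin 83 and 77 bases before the start and stand in capitals, and no match of TTCNNNGAA. The window lies at chr16:10785537-10785786 on the minus strand, just upstream of the annotated gene.
Socs1: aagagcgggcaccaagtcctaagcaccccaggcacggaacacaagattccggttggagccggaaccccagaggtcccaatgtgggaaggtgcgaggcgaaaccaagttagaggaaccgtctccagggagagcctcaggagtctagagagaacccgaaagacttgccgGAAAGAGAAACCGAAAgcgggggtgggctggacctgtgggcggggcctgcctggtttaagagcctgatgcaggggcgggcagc
Of the other members, *Il7r* held 1 match of TTCNNNGAA, TTCAGGGAA, 142 bases before the RefSeq start at chr15:9530010-9530018. By the GENCODE annotation (9505788 to 9530176, minus strand) this match lies inside the gene, downstream of its annotated start. A match of letters is a description of the sequence and not a binding site.

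*Bcl2a1b* is 1 of several near-identical gene copies on chromosome 9, and reads can be split among them. The GENCODE coding sequences of *Bcl2a1a*, *Bcl2a1b* and *Bcl2a1d* are each 519 bases long and differ at 12 positions among the copies. *Bcl2a1b* is 98.8% identical to *Bcl2a1d* and 97.9% identical to *Bcl2a1a*. The first 60 coding bases are shown because no other stretch of 60 holds more of the 12 positions, 6 of them (in capitals). They lie at chr9:88957051-88957110 (plus strand), chr9:89199360-89199419 (plus strand) and chr9:88731660-88731719 (minus strand) in GRCm38, each within a single exon.
Bcl2a1a: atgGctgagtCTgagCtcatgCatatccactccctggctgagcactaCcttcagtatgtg
Bcl2a1b: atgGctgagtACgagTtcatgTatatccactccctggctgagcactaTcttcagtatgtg
Bcl2a1d: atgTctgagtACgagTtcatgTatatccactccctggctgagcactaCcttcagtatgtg

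The question was whether the survival genes track the loss of T cells. T-like cells made up 37.1% of leukocytes in WT (3185 cells) and 9.11% in *Postn*-DTR (519 cells), a ratio of shares of 0.246 (0.225 to 0.268). Naive CD4 T-like cells had the lowest ratio, 0.0728, with 435 cells in WT and only 21 in *Postn*-DTR. The ratio was 0.180 for CD8 T-like, 0.229 for γδ T-like, 0.256 for other CD4 T-like, 0.292 for NKT-like, 0.367 for Treg-like and 0.503 for cycling T-like cells. NK-like cells stood at 0.559, ILC2-like cells at 1.35 and LTi-like cells at 1.40 (0.957 to 2.04). The ratio for B2 B-like cells was 0.463, with B1 B-like cells at 0.657, cycling B-like cells at 0.285 and plasma-like cells at 5.46. Plasma-like and neutrophil-like cells took a larger share in *Postn*-DTR, and without them in the denominator the T-like ratio was 0.464. With that denominator 2 directions turned, B1 B-like cells to 1.24 (1.12 to 1.37) and NK-like cells to 1.05 (0.877 to 1.27). The ratio was then 0.949 for cycling T-like (0.633 to 1.42), 0.873 for B2 B-like, 0.693 for Treg-like and 2.54 for ILC2-like cells, and 0.137 for naive CD4 T-like cells, still the lowest. Changes of cell number cannot be told from changes of share here.

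The level of a gene is its mean over the cells of a class in UMIs per 10000 UMIs. A gene was called in a class where the levels of the libraries differed at least 1.5-fold, among genes with at least 10 expected UMIs in each library. Of the 140 pairs of a member and a class, 112 passed that filter and 55 were called, 40 higher and 15 lower in *Postn*-DTR. Called pairs thus made up 49.1% of the members' pairs, beside 22.4% of the pairs of all genes over the same 14 classes. In the 7 T classes, 25 of 58 pairs were called higher (8.41% of the pairs of all genes) and 7 lower (13.2%). The classes come from the same 2 libraries and are not independent of each other. The members were also chosen with earlier results of these data known, so their larger share of calls is a description only.

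By class, the members' count is given with the share of all genes called. All 4 members tested in naive CD4 T-like cells were called (all genes 31.9%), 3 of them higher. Other CD4 T-like cells had 8 of 10 called (21.4%), with 6 higher, and a median log2 ratio of the members of 0.77 beside 0.01 over all genes. Treg-like cells had 6 of 10 (20.4%), with 4 higher and 2 lower. γδ T-like cells had 4 of 9, all higher (25.3%), and CD8 T-like clusters 4 of 8, with 3 higher (22.5%). NKT-like cells had 2 of 8, both higher (19.3%), not far from the share of all genes. Cycling T-like cells had 4 of 9 (19.9%), with 3 higher. NK-like cells had 3 of 8 (19.4%), with 2 higher, and ILC2-like cells 6 of 9, all higher (28.8%). LTi-like cells had 2 of 8, both higher (29.3%), a share close to that of all genes. Among B lineage cells the counts were 2 of 7 in B2 B-like (17.5%), 4 of 7 in B1 B-like (17.0%), 0 of 6 in cycling B-like (24.2%) and 6 of 9 in plasma-like cells (28.4%). Of these calls, 1 was higher and 1 lower in B2 B-like, 2 and 2 in B1 B-like, and 2 and 4 in plasma-like cells.

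**Figure D1:**
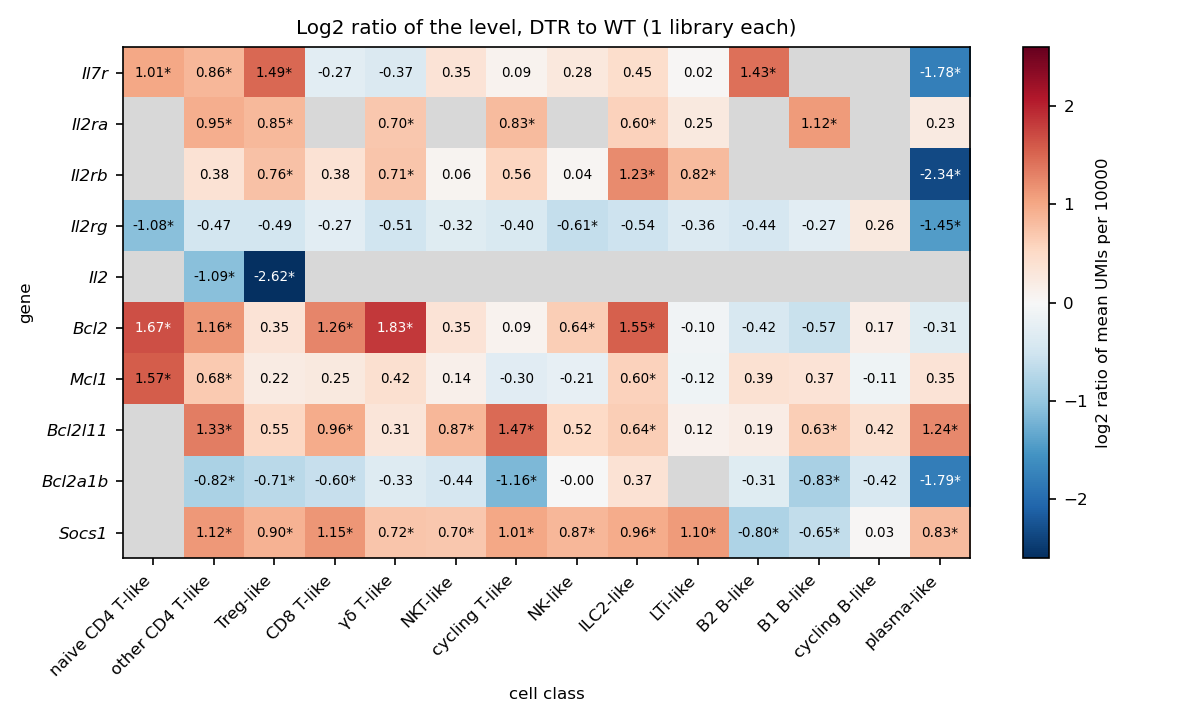
Log2 ratio of the level, *Postn*-DTR to WT, for each of the 10 genes (rows) in each of the 14 lymphocyte classes (columns), 1 library per group. An asterisk marks a difference of at least 1.5-fold and grey marks pairs under 10 expected UMIs in a library. *Socs1* is positive in every T, NK, ILC2 and LTi class shown, and *Il2rg* is negative in all classes but cycling B-like cells.

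*Il7r* (ENSMUSG00000003882, chromosome 15, 9505788 to 9530176, minus strand, GRCm38) was called higher in the 3 CD4 classes of *Postn*-DTR. It was not called in γδ T-like, LTi-like, ILC2-like and NKT-like cells, where its WT level was highest. Nor was it called in CD8 T-like (WT level 4.48), cycling T-like (2.99) and NK-like cells (2.11). Its level in Treg-like cells was 3.87 in WT and 10.8 in *Postn*-DTR, from 732 and 404 UMIs, a log2 ratio of 1.49 (1.32 to 1.68). The levels were 3.56 and 7.18 in naive CD4 T-like cells (log2 ratio 1.01) and 5.98 and 10.8 in other CD4 T-like cells (0.86). The last value was 0.57 on summed UMIs, just under the 1.5-fold limit. In WT the order of the levels was γδ T-like (15.7), LTi-like (14.6), ILC2-like (8.26), NKT-like (6.77), other CD4, CD8 (4.48), Treg, naive CD4, cycling T-like (2.99) and NK-like cells (2.11). The γδ T-like and LTi-like intervals of the summed counts overlapped, as did those of naive CD4 and Treg-like cells. In γδ T-like cells the level was 12.1 in *Postn*-DTR (log2 ratio -0.37, interval -0.63 to -0.33) and in LTi-like cells 14.8 (0.02). Treg-like cells, which in WT stood below CD8 T-like cells, stood with other CD4 T-like cells in *Postn*-DTR. B2 B-like cells were called higher at 0.07 and 0.20, from 41 and 25 UMIs, and 12 of the WT UMIs lay in 1 cell, and without called doublets this pair no longer passed the filter. Plasma-like cells were called lower for *Il7r*.

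The IL-2 receptor chains that confer affinity, *Il2ra* (ENSMUSG00000026770, chromosome 2, 11642807 to 11693193, plus strand) and *Il2rb* (ENSMUSG00000068227, chromosome 15, 78479256 to 78495271, minus strand), had no T, NK or innate class that was called lower. *Il2ra* stood at 1.67 and 3.02 in Treg-like cells (log2 ratio 0.85, 0.60 to 1.21) and at 2.48 and 4.04 in γδ T-like cells (0.70, 0.59 to 1.11). ILC2-like cells had 3.16 and 4.78 (0.60), and LTi-like cells, with the highest WT level, 3.95 and 4.71 (0.25, an interval that includes 0). In other CD4 T-like cells the log2 ratio of 0.95 became 0.50 without the cell with most *Il2ra* UMIs in each library. Cycling T-like (0.83) and B1 B-like cells (1.12) were also called higher for *Il2ra*. *Il2rb* was highest in NK-like cells, at 14.8 and 15.2, and in NKT-like cells, at 10.4 and 10.8, where the libraries did not differ beyond counting error. It was called higher in 4 other classes: ILC2-like cells had 98 and 179 UMIs (log2 ratio 1.23), LTi-like cells from 4.54 to 8.02 (0.82), Treg-like cells from 3.66 to 6.19 (0.76) and γδ T-like cells from 3.21 to 5.26 (0.71). Cycling T-like (0.56) and CD8 T-like cells (0.38), with WT levels of 3.15 and 3.22, were not called. Plasma-like cells were called lower for *Il2rb*.

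*Il2rg* (ENSMUSG00000031304, chromosome X, 101264378 to 101268255, minus strand) went the other way. Its level was lower in *Postn*-DTR in all 10 T, NK, ILC2 and LTi classes, in B2 B-like and B1 B-like cells and in plasma-like cells, and higher only in cycling B-like cells (2.14 and 2.56). Most of these differences were small. Treg-like cells had 8.33 and 5.95 (log2 ratio -0.49, interval -0.61 to -0.23), γδ T-like cells 8.10 and 5.67 (-0.51). The CD8 T-like level was 5.69 in WT against 4.70 (-0.27). Only naive CD4 T-like (6.17 and 2.91, from 1273 and 27 UMIs), NK-like (7.12 and 4.65) and plasma-like cells (1.54 and 0.56) reached 1.5-fold, and NK-like cells did so at a log2 ratio of -0.61 that was -0.49 on summed UMIs. Naive CD4 T-like cells aside, 203 of the 2958 genes tested in the other 9 T, NK, ILC2 and LTi classes (6.86%) were lower in all 9. *Il2rg* was 1 of them, so this uniform sign is not rare among genes of these libraries.

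**Figure D2:**
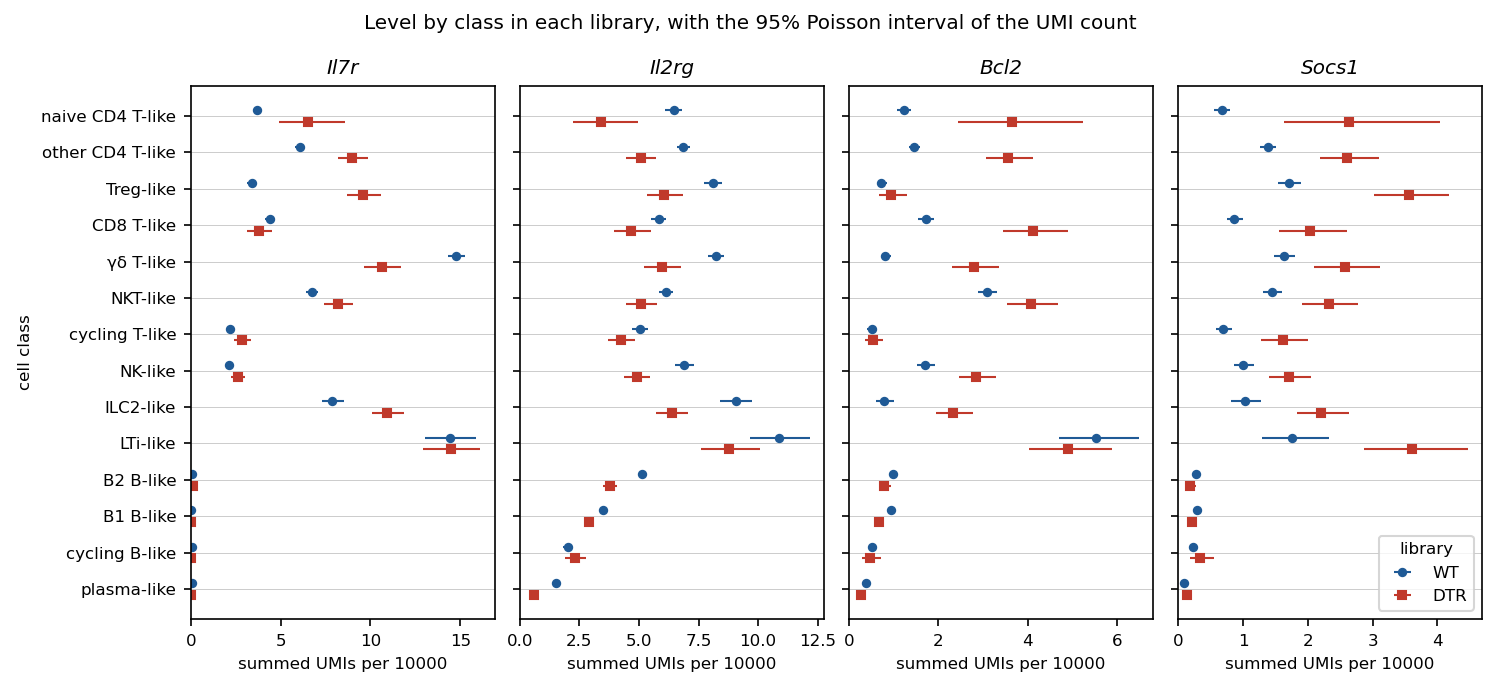
Summed UMIs per 10000 (x axis) of *Il7r*, *Il2rg*, *Bcl2* and *Socs1* in each lymphocyte class (y axis) for the WT (blue circles) and *Postn*-DTR (red squares) library, with the 95% Poisson interval of the UMI count. The *Socs1* points of *Postn*-DTR lie above those of WT in every T, NK, ILC2 and LTi class, and those of *Il2rg* lie below.

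*Il2* (ENSMUSG00000027720, chromosome 3, 37120523 to 37125959, minus strand) passed the filter only in other CD4 T-like and Treg-like cells, and both were called lower. Other CD4 T-like cells had 200 WT and 11 *Postn*-DTR UMIs, levels of 0.51 and 0.24 (log2 ratio -1.09, interval -2.35 to -0.46). Treg-like cells had 142 and 5 UMIs, levels of 0.61 and 0.10 (-2.62, -4.11 to -1.21). The WT UMIs lay in 40 cells, with 34 in 1 cell, and the *Postn*-DTR UMIs in 5 cells. Regulatory T cells are known for making little IL-2, and the Treg-like cluster carried 5 of 5 Treg markers. It also carried 5 of the 6 markers of other CD4 T-like cells, but that list holds genes such as *Cd4* that do not separate the 2 kinds. Whether the cells with *Il2* UMIs were regulatory T cells was not tested. B2 B-like cells had no *Il2* UMI in either library. NKT-like cells, under the filter, had 43 and 10 UMIs and levels of 0.19 and 0.21.

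*Bcl2* (ENSMUSG00000057329, chromosome 1, 106538178 to 106714274, minus strand) was called higher in 4 of 7 T classes and in NK-like and ILC2-like cells. γδ T-like cells had 0.79 in WT and 2.80 in *Postn*-DTR, from 217 and 110 UMIs (log2 ratio 1.83, 1.43 to 2.11). Naive CD4 T-like cells had 1.19 and 3.81 (1.67), ILC2-like cells 0.78 and 2.28 (1.55), CD8 T-like cells 1.63 and 3.90 (1.26), other CD4 T-like cells 1.59 and 3.53 (1.16) and NK-like cells 1.80 and 2.81 (0.64). Treg-like cells, with 0.72 and 0.92 (0.35, interval -0.15 to 0.90), and cycling T-like cells (0.09) showed no difference beyond counting error. LTi-like cells had the highest WT level, 5.47, and 5.12 in *Postn*-DTR. In *Postn*-DTR the naive CD4, other CD4, CD8 and NKT-like cells all lay between 3.53 and 4.02, whereas in WT they ran from 1.19 to 3.16. B2 B-like (1.02 and 0.77) and B1 B-like cells (0.98 and 0.66, log2 ratio -0.57) lay the other way, short of 1.5-fold.

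*Mcl1* (ENSMUSG00000038612, chromosome 3, 95658788 to 95663176, plus strand), the short-lived anti-apoptotic protein that most leukocytes need, differed less. Naive CD4 T-like cells had 3.13 and 9.28 (log2 ratio 1.57, 1.08 to 1.84) and other CD4 T-like cells 3.33 and 5.33 (0.68). Both this value and that of ILC2-like cells (0.60) fell under 1.5-fold on summed UMIs. The remaining T classes lay between -0.30 and 0.42. Outside the lymphocytes the neutrophil-like cells stood at 11.4 and 21.5.

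Pro-apoptotic *Bcl2l11* (ENSMUSG00000027381, chromosome 2, 128126038 to 128162547, plus strand) was higher in *Postn*-DTR in all 13 lymphocyte classes tested and called in 7 of them. Over all genes 22.4% of the pairs were called in either direction, and genes higher in all 13 classes were not counted. The sign in B2 B-like cells (0.19) did not hold in each of their clusters, which gave 0.01 and -0.07. Other CD4 T-like cells had 0.70 and 1.75 (log2 ratio 1.33, 0.75 to 1.59), cycling T-like cells 0.32 and 0.90 (1.47), CD8 T-like cells 0.66 and 1.28 (0.96) and NKT-like cells 1.26 and 2.30 (0.87). Plasma-like cells had 0.36 and 0.85, from 657 and 4383 UMIs (1.24). ILC2-like (0.64) and B1 B-like cells were called higher as well. *Bcl2* and *Bcl2l11* were thus both called higher in other CD4 and CD8 T-like cells, whereas γδ T-like cells had a higher *Bcl2* level and a *Bcl2l11* level of 0.26 and 0.32 that did not differ beyond counting error and had the other sign on summed UMIs (-0.19).

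*Bcl2a1b* (ENSMUSG00000089929, chromosome 9, 89199209 to 89207827, plus strand) was the anti-apoptotic member with lower levels. It was called lower in 4 of 6 T classes tested, in B1 B-like cells and in plasma-like cells. Treg-like cells had 4.14 and 2.53 (log2 ratio -0.71, -0.97 to -0.39), other CD4 T-like cells 1.89 and 1.07 (-0.82) and cycling T-like cells 1.97 and 0.88 (-1.16). ILC2-like cells had 0.72 and 0.94. Summing *Bcl2a1a*, *Bcl2a1b* and *Bcl2a1d*, between which reads may be split, gave log2 ratios of -0.61 in Treg-like, -0.75 in other CD4 T-like and -1.18 in cycling T-like cells. In CD8 T-like cells, called lower for *Bcl2a1b* alone (-0.60), the sum gave -0.52, under 1.5-fold.

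*Socs1* (ENSMUSG00000038037, chromosome 16, 10782240 to 10785536, minus strand), the inhibitor that cytokine signalling itself induces, was called higher in each of the 9 T, NK, ILC2 and LTi classes where it passed the filter. The log2 ratios lay between 0.70 in NKT-like cells (1.53 and 2.49) and 1.15 in CD8 T-like cells (197 and 63 UMIs). Other CD4 T-like cells had 1.46 and 3.17 from 513 and 134 UMIs (1.12, and 0.92 on summed UMIs), Treg-like cells 369 and 150 UMIs (0.90), NK-like cells 1.06 and 1.94 (0.87), ILC2-like cells 1.10 and 2.15 (0.96) and LTi-like cells 1.57 and 3.36 (1.10). Naive CD4 T-like cells, under the filter, had 132 and 21 UMIs and levels of 0.70 and 2.67. Plasma-like cells, at a far lower level of 0.08 and 0.14, were also called higher (0.83). B2 B-like (0.28 and 0.16) and B1 B-like cells (0.30 and 0.19) were called lower, but the log2 ratios were -0.52 and -0.53 on summed UMIs, under 1.5-fold, and the B2 B-like interval ran from -1.12 to 0.03. Of the 2958 genes tested in those 9 classes, 90 (3.04%) were higher in all 9. Among them were *Socs1*, *Il2rb* and *Bcl2l11* (in γδ T-like cells by the mean level only) of the 7 members tested in all. Of the 2921 also tested in B2 B-like and B1 B-like cells, 7 (0.24%) were in addition lower in both. They were *Socs1*, *Rusc1*, *Tnfrsf18*, *Hspa8*, *Cast*, *Cuedc2* and *Pja1*, named because the count is small. The pattern counted is the one *Socs1* shows, so its place among the 7 was fixed in advance and the count is a description only.

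The other feedback inhibitors of cytokine signalling were measured as part of a list of 42 pathway genes, of which 40 are listed in the files (*Il9* and *Hrk* are not). *Cish*, which STAT5 induces, was called higher in 5 of 5 T classes tested, from 0.26 to 0.78 in NKT-like cells (log2 ratio 1.58) and from 2.37 to 3.64 in Treg-like cells (0.62). On summed UMIs the Treg-like value was 0.58 and the γδ T-like value 0.50, under 1.5-fold. NK-like (0.47) and ILC2-like cells (0.17) were not called for *Cish*. *Socs3*, better known as a target of STAT3, was called in 4 of 6, from 1.38 to 3.14 in other CD4 T-like cells (1.19), and also in B2 B-like cells, from 0.19 to 1.25 (2.68). *Socs2* was called in 3 of 5, from 0.59 to 1.47 in other CD4 T-like cells (1.33). *Socs3* was thus called higher in B cells as well as T cells of *Postn*-DTR. None of the 4 inhibitors was called lower in a T class. The STAT5-induced genes *Myc* (2 T classes higher, 2 lower) and *Ccnd2* (1 of 7 higher) did not share the pattern.

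**Figure D3:**
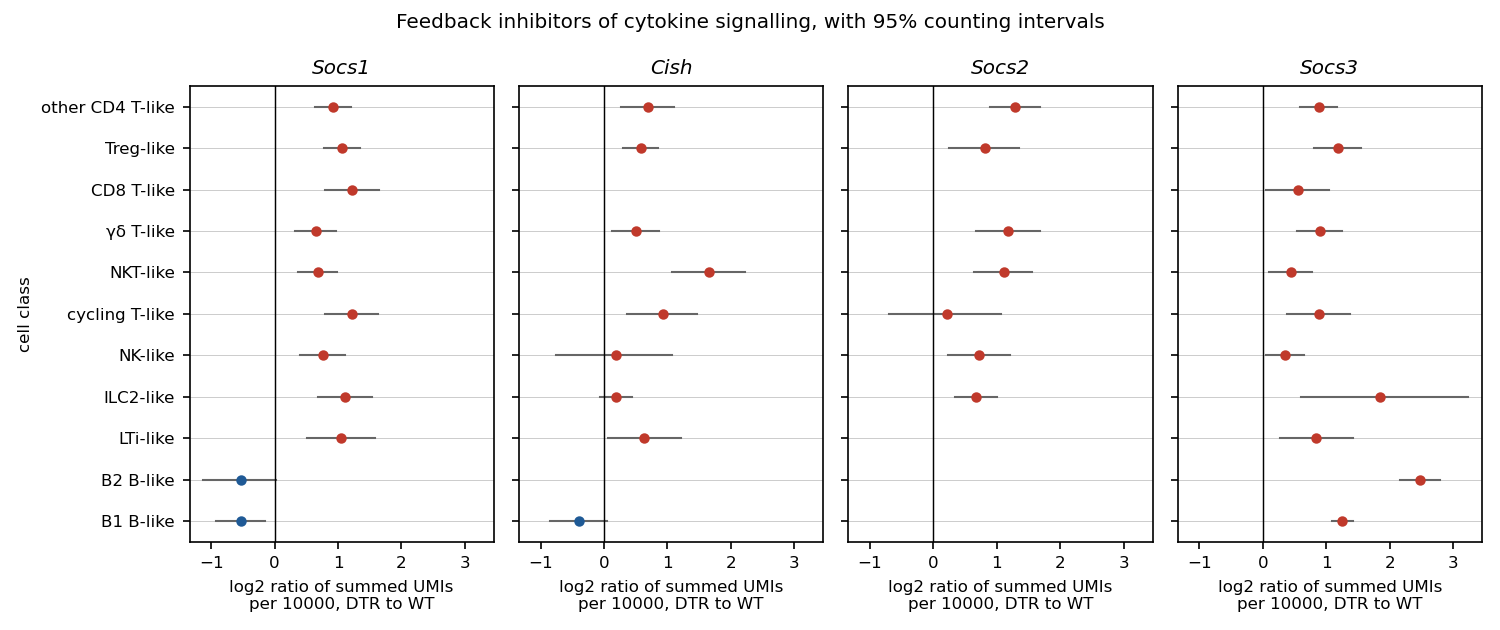
Log2 ratio of summed UMIs per 10000, *Postn*-DTR to WT (x axis), of *Socs1*, *Cish*, *Socs2* and *Socs3* in lymphocyte classes (y axis) with at least 10 expected UMIs in each library. Points are red above 0 and blue below, bars are 95% counting intervals, and missing points did not pass the filter. All T, NK, ILC2 and LTi points lie above 0, and *Socs1* and *Socs3* point in opposite directions in B2 B-like and B1 B-like cells.

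Over the whole pathway list, without members, 30 of the 149 pairs tested in T classes were called higher (20.1%, beside 8.41% of the pairs of all genes) and 17 lower, a share near or below the 13.2% of all genes. This list too was chosen with earlier results of these data known. Of the 30 higher pairs, 15 belong to the feedback and STAT5-induced genes, which had 29 pairs tested and 2 lower. Receptors had 3 of 21 pairs higher and none lower: *Crlf2*, a chain of the TSLP receptor that pairs with the IL-7 receptor α chain, was called in 2 of 6 T classes, and *Il4ra* in Treg-like cells, from 0.98 to 2.04. Kinases and STATs had 6 of 36 higher and 3 lower, with *Stat3* higher in 3 of 7 T classes and *Jak3*, the kinase bound to the γ chain, in none of 6. Anti-apoptotic genes that are no members had none of 9 higher and 2 lower, both in copies of *Bcl2a1b*. BH3-only genes other than *Bcl2l11* had 2 of 9 higher and 3 lower, and the effectors *Bax* and *Bak1* had none called in 12. The regulators of *Il7r* transcription had 4 of 33 higher (12.1%) and 7 lower, not far from the shares of all genes, with *Foxo1*, a known activator of *Il7r*, lower in 2 of 7 T classes. None of the 5 listed ligands passed the filter in a T class. *Il7* had 4 UMIs in the stromal cells of WT and 7 in those of *Postn*-DTR, and a level of 0.03 and 0.11, so that its supply cannot be read from these libraries. *Il15* was found at 0.45 and 0.58 in neutrophil-like cells, and *Il4* from 30 and 15 UMIs in mast and basophil-like cells.

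To see whether the genes tracked the loss, the log2 ratio of each gene over the lymphocyte classes was set beside that of the class share. For *Bcl2* Spearman's rank correlation was -0.63 over 14 classes and -0.86 over the 7 T classes: the classes that lost most had the larger *Bcl2* ratio. ILC2-like cells departed from this order, with a larger share and a log2 ratio of 1.55, and leaving out 1 class at a time gave -0.81 to -0.54. For *Mcl1* it was -0.35 over 14 classes, or -0.15 on summed UMIs, and -0.82 over the T classes. *Il7r* did not follow the loss (-0.24 over 12 classes, 0.14 over the T classes), nor did *Socs1* (-0.10), *Il2rg* (-0.13) or *Bcl2l11* (-0.07). *Il2ra* gave -0.62, but over the 8 classes where it was tested, and *Bcl2a1b* -0.10 over 12 classes and -0.60 over 6 T classes. Set beside the share ratio in the same way, the WT levels gave rank correlations over 14 classes between -0.31 (*Bcl2a1b*) and 0.21 (*Mcl1*), and -0.18 for *Il7r* and -0.17 for *Bcl2*. Within the T classes the WT level of *Il2* gave 0.79 and that of *Bcl2a1b* 0.68. *Il2* passed the filter in only 2 of these 7 classes, so most of its ranks rest on few UMIs. The classes share libraries and depth, the points with few cells (21 naive CD4 T-like and 17 cycling B-like cells in *Postn*-DTR) are the least certain, and the values are descriptions.

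**Figure D4:**
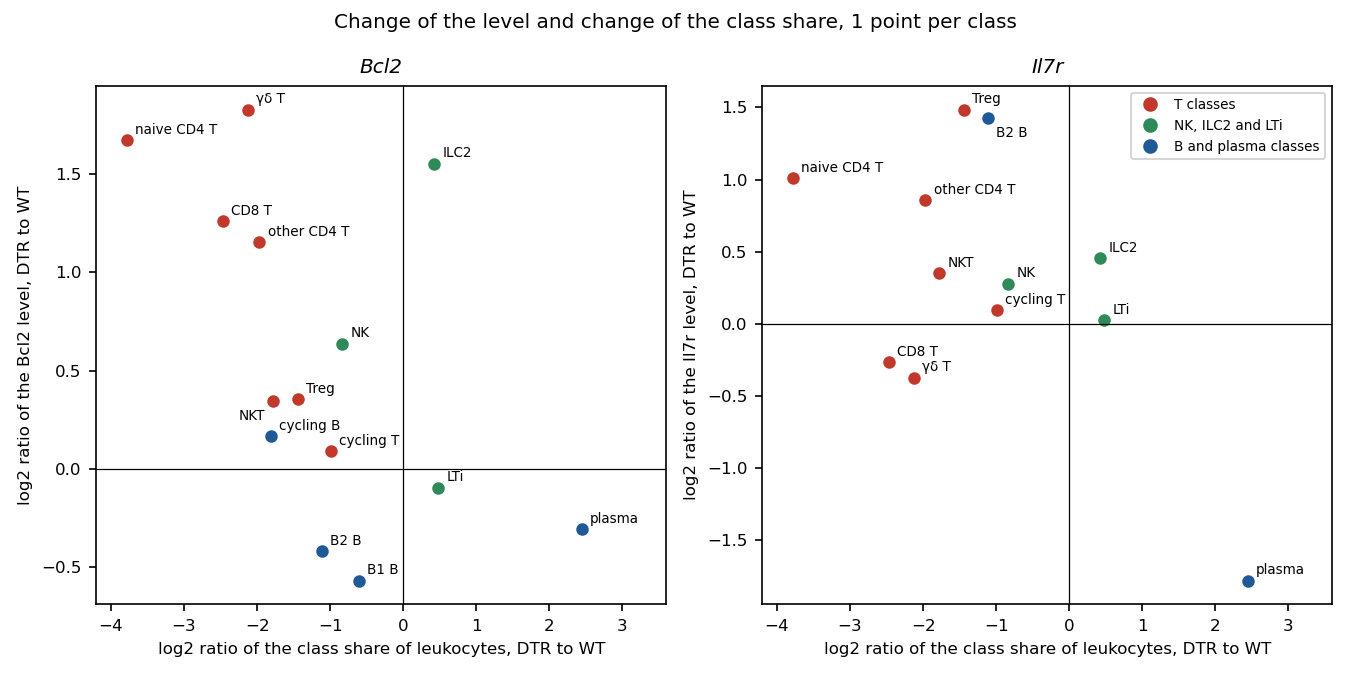
Log2 ratio of the class share of leukocytes (x axis) and of the level of *Bcl2* (left) or *Il7r* (right) (y axis), *Postn*-DTR to WT, 1 point per lymphocyte class. T classes are red, NK, ILC2 and LTi green, and B and plasma classes blue. Naive CD4 and γδ T-like cells lie at the upper left for *Bcl2* and on opposite sides of 0 for *Il7r*.

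The level does not say how many cells carry a transcript, so cells were thinned to 1000 UMIs each. In Treg-like cells an *Il7r* UMI was found in 26.1% of 426 WT cells (21.9% to 30.5%, exact Clopper-Pearson interval) and 54.8% of 104 *Postn*-DTR cells (44.7% to 64.6%), or 58.1% and 77.9% unthinned. In neutrophil-like cells, which should lack the gene, the shares were 2.09% and 0.388%. *Il2ra* was found in 12.7% and 22.1% of Treg-like cells, beside 0 of 239 (which allows up to 1.26% by the limit of 3 counts of the total) and 0.129% of neutrophil-like cells. *Il2rb* was found in 75.6% and 72.2% of NK-like cells and in 0.336% and 0 of 447 B2 B-like cells (which allows up to 0.671% by the same limit). *Socs1* was found in 11.5% of 806 and 24.2% of 132 other CD4 T-like cells, beside 2.35% and 2.01% of B2 B-like cells, and *Il2rg* in 50.1% and 29.5%, beside 10.4% and 4.35% of stromal cells. *Il2* was found in 5.21% (3.78% to 6.98%) and 3.03% (0.83% to 7.58%) of other CD4 T-like cells. In Treg-like cells it was found in 15 of 426 (1.98% to 5.74%) and 0 of 104 (0 to 3.48%), and in both classes the intervals of the libraries overlapped. Thinning left out 32 and 10 of the other CD4 T-like cells, and 1 and 0 of the Treg-like cells.

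Several measures moved with the group and stand beside these values. In T, NK, ILC2 and LTi-like cells the summed level of 6 neutrophil transcripts ranged over 0.37 to 0.64 for WT and over 0.82 to 1.99 for *Postn*-DTR, apart from cycling T-like cells (11.9 and 17.8). Cycling T-like cells (8.12 and 4.47) again apart, the summed level of 5 plasma cell transcripts ranged over 4.91 to 8.10 for WT. For *Postn*-DTR it ranged over 8.52 to 21.8, and it was higher than in WT in each of these classes. The *Socs1* level of *Postn*-DTR was 0.14 in plasma-like and 0.09 in neutrophil-like cells, and that of *Bcl2* was 0.33 and 0.05, below the level in every T class. Plasma-like and neutrophil-like cells hold few receptor transcripts, and their levels of these were also lower in *Postn*-DTR, the library with fewer T-like cells: *Il7r* was 0.09 and 0.03 in plasma-like and 0.21 and 0.05 in neutrophil-like cells, and *Il2rb* 0.11 and 0.02 and 0.23 and 0.06. The sum of 10 dissociation-induced genes was 41.7 and 39.8 in other CD4 T-like, 74.9 and 77.3 in Treg-like and 70.3 and 80.5 in γδ T-like cells, and 20.8 and 37.0 in naive CD4 T-like cells. Other CD4 T-like cells had a median depth of 3962 UMIs for WT and 3143 for *Postn*-DTR, Treg-like cells 4299 and 3317, and γδ T-like cells 4878 and 4866. *Neat1*, a nuclear RNA, was higher in *Postn*-DTR in these classes, from 0.58 to 1.48 in CD8 T-like, from 0.56 to 1.21 in ILC2-like, from 1.23 to 1.91 in NKT-like and from 0.91 to 1.58 in Treg-like cells, and at 1.42 and 1.44 in other CD4 T-like cells. The part of these measures in the members' ratios was not tested.

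B2 B-like cells came mostly from different clusters in the libraries (a split made after seeing the data), with 944 of 1526 WT cells in cluster 2 and 396 of 468 *Postn*-DTR cells in cluster 4. Within cluster 4 *Socs1* was 0.33 and 0.15 (log2 ratio -1.10), *Bcl2* 0.96 and 0.75 (-0.37), *Il2rg* 4.66 and 3.72 (-0.33) and *Mcl1* 5.03 and 6.88 (0.45). Within cluster 2 *Bcl2* (-0.29), *Il2rg* (-0.41) and *Mcl1* (0.31) had the same signs. *Bcl2l11* was 0.01 in cluster 2 and -0.07 in cluster 4, and *Il7r*, tested only in cluster 4, was 0.76 there beside 1.43 over both clusters.

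Over the 21 classes and unnamed clusters with at least 50 WT cells, the gene most like each member in its WT levels (Pearson's r of log2 levels, among 12156 genes) was sought. For *Il2ra* it was *Cish* (0.96), the STAT5 target of the feedback list. For *Il2rb* it was *AW112010* (0.96), for *Il7r* *Gbp8* (0.94), for *Il2rg* *Shisa5* (0.93), for *Bcl2* *Wdr47* (0.93), followed by *Gimap8* and *Gimap5* (0.89 each), for *Socs1* *Tnik* (0.96) and for *Il2* *Spry1* (0.92). *Bcl2a1b* was most like its own copy *Bcl2a1d* (0.84), *Mcl1* like *Pira2* (0.88) and *Bcl2l11* like *Ugcg* (0.85).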

How the data were processed

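Per the labels, single-cell libraries of omentum were made on the Chromium platform with a 5′ reagent kit. The methods of the study state a 3′ kit instead. The submitters' processing notes name Cell Ranger 6.0.0 and mm10, whereas the methods of the study name an earlier version of Cell Ranger. The values deposited by the authors are the natural log of 1 plus UMIs per 10000, and they were transformed back. Dividing by the value of 1 UMI, estimated for each cell, gave UMIs that were whole within 0.1 for 99.96% of WT and 99.91% of *Postn*-DTR values. Because the unit is a log value and each group is 1 library, no count model was fitted.

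Cells with 200 to 7500 genes and at most 25% mitochondrial UMIs were kept, as in the study, and merged without batch correction (Seurat 5.3.0, sctransform 0.4.2, R 4.3.3, 3000 features, 30 components, Louvain resolution 0.8). V, D and J segments and the members were left out of the features. A cluster took a name from at least 3 markers, by thresholds set after the clusters were seen, and 4 clusters stayed unnamed, among them cluster 8 (483 and 73 cells) and cluster 18 (114 and 196 cells). CD4 T-like cells outside the naive and Treg clusters are called other CD4 T-like. Scrublet (scanpy 1.11.5), with the threshold of *Postn*-DTR used for both libraries, marked 152 and 103 doublets, which were kept. Shares use cells of leukocyte clusters and exact Clopper-Pearson intervals, and ratios of shares the approximate Katz interval. Intervals of level ratios are conditional binomial intervals of summed UMIs. Genes were located in GENCODE M21 (GRCm38), which held 19932 of the 19960 identifiers. The level and call computations were tested on Poisson counts simulated from a pooled profile of other CD4 T-like cells. These hold no variation between cells beyond depth and none between mice, so they check the arithmetic only. All 10 members were measured in every lymphocyte class, and values are printed for a part of these pairs. From the pathway list the genes called in most T classes are named. The members and lists were chosen with earlier results of these data known. Alternatives were summed UMIs, median centring, other totals, resolution, filters, doublet removal and the fold of a call.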

Additional observations from a re-analysis of the deposited data

How the results depend on the processing

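Of the 55 called pairs of a member and a class, all 55 kept their sign under each alternative in which they were tested, and 44 stayed called under all 9 alternatives other than a stricter fold or filter. Of the other 11, 7 fell under 1.5-fold on summed UMIs: *Il7r*, *Il2ra* and *Mcl1* in other CD4 T-like, *Mcl1* in ILC2-like, *Il2rg* in NK-like, and *Socs1* in B2 B-like and B1 B-like cells. *Il2ra* and *Bcl2l11* in ILC2-like and *Bcl2a1b* in CD8 T-like cells, all near the limit, lost their call under other alternatives, and *Il7r* in B2 B-like cells was untested without doublets. *Il2ra* in other CD4 T-like cells gave 0.25 with members among the features and 0.50 without the cell with most UMIs. At a 2-fold limit 18 pairs were called higher and 8 lower, by construction. Leaving out the filter, 1 of the 9 alternatives, could not remove any call, also by construction. The ratio of the T-like share was 0.464 without plasma-like and neutrophil-like cells in the denominator and 0.217 for cells gated on T cell UMIs. Spearman's rank correlation for *Bcl2* was -0.86 over T classes only. The rank correlation for *Il7r* was -0.018 with the smaller denominator, which leaves out the plasma-like class and changes no other rank, and 0.14 over T classes. With at least 30 cells in each library, an alternative chosen after seeing the data, it was -0.54 for *Bcl2* and -0.12 for *Il7r*. Thinned to 2000 UMIs, the ratio of shares of cells with a UMI was 1.69 for *Il7r* in Treg-like cells (2.10 at 1000), 1.54 for *Socs1* (2.10) and 0.819 for *Il2rg* (0.589) in other CD4 T-like cells. No paired analysis was possible because each group has 1 library. The 21 naive CD4 T-like cells of *Postn*-DTR limit every value of that class.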
